A study of Mus musculus with 6 samples.

Results

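The 10 genes described here encode the MHC class II antigen presentation machinery of the mouse, and they were taken from the 55401 genes of the count tables by their GENCODE M21 symbols by a rule that uses no measured value, although earlier results of these data were known when they were chosen. They are the classical chains *H2-Aa*, *H2-Ab1* and *H2-Eb1*, the invariant chain *Cd74*, the peptide exchange chains *H2-DMa*, *H2-DMb1* and *H2-DMb2*, the inhibitory chains *H2-Oa* and *H2-Ob*, and the transactivator *Ciita*. All 10 passed the filter on low counts. RNA came from whole tibias of male mice at 8 weeks of age, 3 with a preosteoblast-directed deletion of *Atrx*, a chromatin remodeler (labeled Osterix-Cre; Atrxf/y, here Atrx-cKO), and 3 with the floxed allele alone (labeled Atrxf/y, here control). The Cre transgene is driven by *Osterix* (*Sp7*) sequence in a Tet-off line, and doxycycline kept it silent until 3 weeks of age. It was present in every Atrx-cKO mouse and in no control, so an effect of the transgene and an effect of *Atrx* loss cannot be told apart in these libraries. The labels give replicate numbers only, so the p-values below measure the spread between these samples.

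MHC class II molecules are heterodimers of an alpha and a beta chain that carry peptides from endosomes to the cell surface, where CD4 T cells read them. Invariant chain fills the groove of a new molecule, cathepsin S trims it, and H2-DM exchanges the remaining fragment for antigenic peptide, while H2-DO restrains H2-DM, mainly in B cells. In bone, dendritic cells, macrophages and B cells of the marrow are the main cells that carry these molecules, and CIITA, acting with factors bound to the X and Y boxes of the promoters, is required for most of their transcription.

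The genes lie in a cluster on mouse chromosome 17 of GRCm38, apart from *Ciita* on chromosome 16 (10480059 to 10528418) and *Cd74*. The cluster runs from *H2-Oa* (34092340 to 34095234) through *H2-DMa* (34119541 to 34139101), *H2-DMb2* (34143307 to 34151555), *H2-DMb1* (34153072 to 34160230), *H2-Ob* (34238903 to 34254414), *H2-Ab1* (34257689 to 34269419) and *H2-Aa* (34282744 to 34287823, on the minus strand) to *H2-Eb1* (34305867 to 34316674). The class I processing genes *Psmb9*, *Tap1*, *Psmb8* and *Tap2* sit between *H2-DMb1* and *H2-Ob*. Some counts carry a limit of position. *H2-DMa* shares 360 exonic bases, 10.4% of its exons, with *Brd2* on the opposite strand, *H2-Oa* shares 321 (22.8%) with the antisense gene *BC051537*, and *Ciita* shares 329 (3.45%) with *Dexi*. *H2-DMb1* and *H2-DMb2* are close copies. They have 369 stretches of 50 bases in common, 27.2% of those in *H2-DMb1* transcripts and 21.2% of those in *H2-DMb2* transcripts, so reads may have been split between them.

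RefSeq promoter windows (GRCm38.p6, 250 bases before to 50 after the start site) were at hand for 7 of the 10 genes, namely *H2-Aa*, *H2-Eb1*, *H2-DMa*, *H2-DMb1*, *H2-DMb2*, *H2-Oa* and *H2-Ob*. In 6 of the 7, all but *H2-DMa*, the letters AAC were followed after 23 to 26 bases by TGATTGG on the coding strand. AAC is the core of the X box as searched here and TGATTGG is the Y box. The letters and the spacing were set with these sequences in view, so the match is a description and no test. Searched on both strands, the pair occurred in 151 of 32851 windows of the same length (0.460%), and TGATTGG alone occurred in 7.82% of them. The stretches of 4 genes that do not reach into any annotated exon are shown, *H2-Aa* and *H2-Eb1* for the classical chains and *H2-DMb2* and *H2-Ob* for the genes whose levels followed a different course over the libraries (described below), with the X core and the Y box in capitals.
H2-Aa, chr17:34287852-34287917, minus strand: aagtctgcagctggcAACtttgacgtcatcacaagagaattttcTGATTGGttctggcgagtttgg
H2-Eb1, chr17:34305763-34305827, plus strand: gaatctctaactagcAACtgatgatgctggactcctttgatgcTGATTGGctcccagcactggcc
H2-DMb2, chr17:34145113-34145178, plus strand: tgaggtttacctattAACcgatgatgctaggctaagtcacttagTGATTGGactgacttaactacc
H2-Ob, chr17:34238805-34238867, plus strand: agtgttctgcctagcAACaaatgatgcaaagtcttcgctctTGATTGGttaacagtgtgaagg
The pair was thus found in genes of both courses. The X core began between 74 bases (*H2-Oa*) and 121 bases (*H2-DMb2*) before the annotated start site, and the Y box followed between 45 bases before it in *H2-Oa* and 92 bases before it in *H2-DMb2*.

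**Figure D1:**
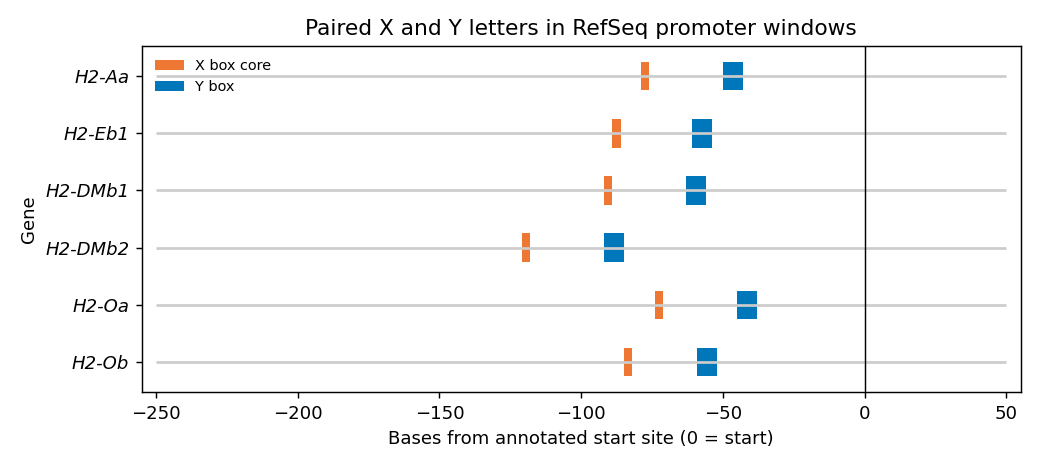
Position of the X box core (orange) and the Y box (blue) in the promoter windows of 6 class II genes, in bases from the RefSeq start site at 0. In all 6 the X core lies upstream of the Y box, separated by 23 to 26 bases, and the X core begins 74 to 121 bases before the start site.

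Each library held between 50977777 and 70571655 counts on genes, and a gene at 0 counts could lie at up to 0.0630 CPM in the shallowest library (TMM-scaled), a limit of 3 counts that covers counting error only. Values are CPM, counts relative to the library size after TMM scaling, whose factors lay between 0.934 and 1.05. Of 20636 genes tested, 3 passed the thresholds of the study, which ask for an adjusted p under 0.05 together with a log2 fold change of 1 or more in either direction. *Cartpt* was among them at a log2 fold change of 9.75 (adjusted p = 0.0191, edgeR quasi-likelihood test, adjusted by Benjamini-Hochberg). *Atrx* was at -0.05, a count that covers the whole gene in all cells of the bone and does not check the labels. Libraries of one genotype differed by more than sampling noise. Control replicate 3 stood apart in skeletal muscle genes, whose 8 listed genes summed to 11985 CPM there against 681 to 2447 in the other 5 libraries. Control replicate 2 was lowest for B cell and erythroid genes, with 300.1 CPM summed over 11 B cell genes against 448 to 663 elsewhere, and 2387 CPM over 8 erythroid genes against 2953 to 6186. Both libraries are controls, and values without them are given where they matter.

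The class II genes were expressed in every tibia and together made up 0.0934% to 0.146% of the counts. The classical chains and *Cd74* gave 89.8% to 91.5% of these, and *Cd74* alone gave 34.8% to 38.2%, ranking between 136th and 249th among all genes of a library. Corrected for the length of the principal transcript, *Cd74* stood first at 329 CPM per kilobase over the 6 libraries, ahead of *H2-Aa* at 207, *H2-Ab1* at 194 and *H2-Eb1* at 138. The level then fell away to 21.9 CPM per kilobase for *H2-DMa* and 19.2 for *H2-DMb1*. *H2-Ob* (5.99 CPM per kilobase), *Ciita* (4.95) and *H2-DMb2* (4.71) came next, and *H2-Oa* was last at 2.07. Most neighbors in this order kept it in 6 of 6 libraries. The exceptions were *H2-Ob* over *Ciita* (5 of 6) and *Ciita* over *H2-DMb2* (3 of 6), so these 3 genes do not have a settled order. With the summed length of all annotated exons in place of the principal transcript, *H2-Aa* over *H2-Ab1*, *H2-Ab1* over *H2-Eb1* and *H2-DMa* over *H2-DMb1* held in 0 of 6 libraries, so these neighbors cannot be ranked without knowing which transcripts were present. *Cd74* above the classical chains, and all of these above the DM chains, held in 6 of 6 with both lengths.

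The proportion between the I-A chains varied little from library to library. Per length of the principal transcript, *H2-Aa* was 1.02 to 1.13 times *H2-Ab1*, a span of 1.11-fold over the 6 libraries, and *H2-Eb1* was 0.671 to 0.749 times *H2-Ab1*, a span of 1.12-fold. With the summed exon length the same ratios were 0.644 to 0.714 and 1.22 to 1.36, so which gene is higher turns with the length while the span does not. *Cd74* was 1.57 to 1.87 times *H2-Ab1* (2.80 to 3.33 by summed exons). *H2-DMa* was 1.07 to 1.30 times *H2-DMb1* (0.615 to 0.746 by summed exons), a span of 1.21-fold. The DO chains, also partners of one heterodimer, spanned 1.58-fold, with *H2-Oa* at 0.285 to 0.450 times *H2-Ob* (0.444 to 0.701 by summed exons). The second DM beta gene spanned 2.69-fold, with *H2-DMb2* at 0.122 to 0.329 times *H2-DMb1*. The alpha chain of I-E has no active gene in some mouse strains. Its entry, *H2-Ea-ps*, is annotated as a pseudogene here and had 4 counts in control replicate 2 and 0 counts in the other 5 libraries, while *H2-Eb1* had 8016 to 19576 counts. *H2-Eb2*, a weakly expressed second I-E beta gene, had 73, 33 and 47 counts in Atrx-cKO and 56, 20 and 37 in control.

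**Figure D2:**
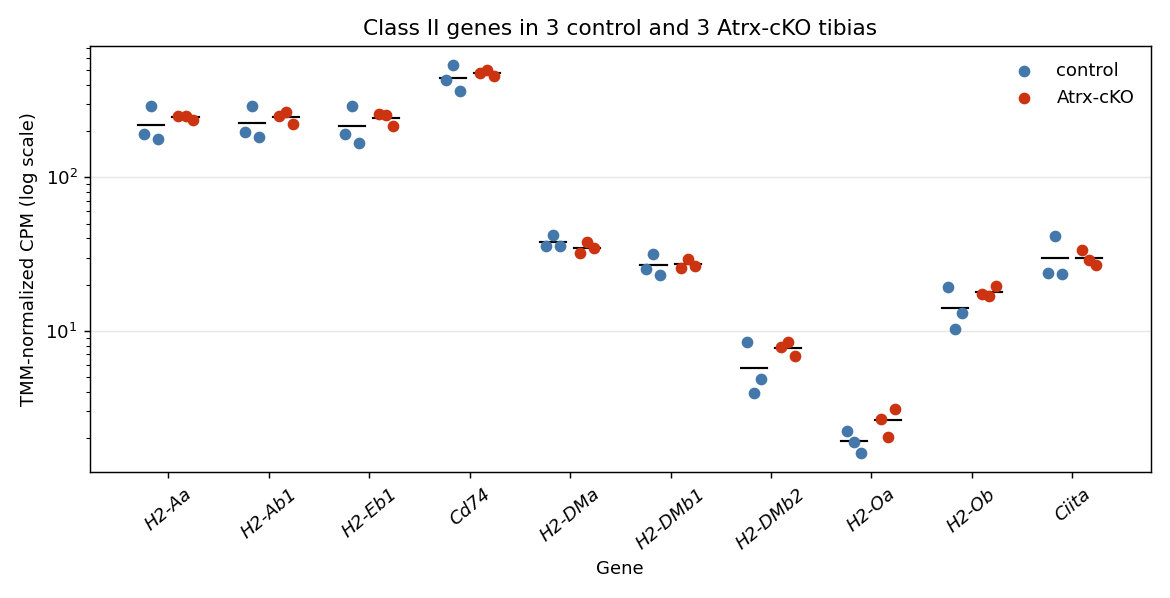
Level of the 10 class II genes in each tibia, as TMM-normalized CPM on a log axis, with 3 control libraries in blue, 3 Atrx-cKO libraries in red and a black bar at each group mean. Points of the 2 groups overlap for every gene, and *Cd74* is highest at 368 to 538 CPM and *H2-Oa* lowest at 1.60 to 3.10 CPM.

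None of the 10 class II genes passed the test between Atrx-cKO and control tibias, where 0.0145% of all tested genes did. None passed in DESeq2 either, where 0.0975% of all genes did. At an unadjusted p under 0.05 the count was again 0 in edgeR (3.64% of all genes) and 0 in DESeq2 (4.02%), and every Benjamini-Hochberg adjusted p was at least 0.992 in the edgeR quasi-likelihood test. The groups overlapped in all 10 genes, while 8.31% of all tested genes had groups that did not. The log2 fold change (Atrx-cKO over control) was above 0 in 9 of the 10, against 51.2% of all genes, with a median of 0.15 against 0.00 for all genes. This majority rested on control replicate 3. Without it, 4 of the 10 were above 0 and the median was -0.01. In whole bone, fewer cells of a type and less RNA per cell cannot be told apart, and this holds for each value that follows.

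The classical chains showed the same course over the 6 tibias. *H2-Aa* had 250.1, 253 and 237 CPM in Atrx-cKO replicates 1, 2 and 3 and 192, 291 and 179 CPM in control replicates 1, 2 and 3. *H2-Ab1*, with 249.98, 266 and 224 CPM in Atrx-cKO and 198, 294 and 182 CPM in control, followed it library by library. *H2-Eb1* had 258, 253 and 217 CPM in Atrx-cKO and 191, 294 and 168 CPM in control. In each of these genes the 3 Atrx-cKO values lay close together inside the range of the controls, with control replicate 2 above them all and control replicates 1 and 3 below them all. The log2 fold change was 0.16 for *H2-Aa* (standard error 0.18, 95% interval -0.25 to 0.58), 0.13 for *H2-Ab1* (0.18, -0.29 to 0.56) and 0.16 for *H2-Eb1* (0.20, -0.31 to 0.62). Leaving out 1 control decided even this much. Without control replicate 2 the log2 fold changes were 0.41, 0.37 and 0.43, with unadjusted p = 0.00599, 0.0177 and 0.0124 (edgeR quasi-likelihood test) and an adjusted p near 1. Without control replicate 3 they were 0.02, -0.01 and -0.01.

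*Cd74*, whose product escorts class II chains out of the endoplasmic reticulum, lies on chromosome 18 (60803848 to 60812652) and had 483, 503 and 460.2 CPM in Atrx-cKO and 431, 538 and 368 CPM in control. Its libraries stood in the same places, control replicate 2 highest and control replicate 3 lowest, over a narrower range. The log2 fold change was 0.11 (standard error 0.14, 95% interval -0.22 to 0.44), and -0.02 without control replicate 3.

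*Ciita*, the transactivator, had 33.7, 29.1 and 26.8 CPM in Atrx-cKO and 23.9, 41.5 and 23.6 CPM in control. It too was highest in control replicate 2, and the other controls lay below all Atrx-cKO libraries. Its log2 fold change was 0.01 (standard error 0.22, 95% interval -0.51 to 0.53). Between fits that each left out 1 library it ran from -0.14 to 0.33, the latter without control replicate 2 (unadjusted p = 0.0379). Per length, *Ciita* was 0.0221 to 0.0285 times *H2-Ab1* in the 6 libraries.

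Among the DM chains, which catalyze peptide exchange, *H2-DMa* was the one class II gene with a negative log2 fold change. It had 32.3, 37.7 and 34.5 CPM in Atrx-cKO and 35.7, 42.3 and 35.5 CPM in control, a log2 fold change of -0.12 (standard error 0.10, 95% interval -0.36 to 0.12). With each library left out in turn it lay between -0.19 and -0.03. *H2-DMb1* had 25.6, 29.4 and 26.6 CPM in Atrx-cKO and 25.2, 31.5 and 23.2 CPM in control, with a log2 fold change of 0.03 (0.13, -0.27 to 0.33). Both were highest in control replicate 2, as the classical chains were. *H2-DMb2* was not. It had 7.83, 8.44 and 6.85 CPM in Atrx-cKO and 8.41, 3.90 and 4.81 CPM in control, so that the library with the most *H2-DMb1* had the least *H2-DMb2*. Its log2 fold change was 0.43 (standard error 0.28, 95% interval -0.22 to 1.08). Without control replicate 1, the one control at the Atrx-cKO level, it was 0.83 (unadjusted p = 0.00262, adjusted p = 0.213, edgeR quasi-likelihood test), the lowest adjusted p of any class II gene under any setting. Without control replicate 2 it was 0.22.

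The DO chains, which inhibit DM, were low. *H2-Ob* had 17.4, 16.7 and 19.5 CPM in Atrx-cKO and 19.2, 10.2 and 12.996 CPM in control. Control replicate 1 lay at the Atrx-cKO level and the other controls lay below it. The log2 fold change was 0.34 (standard error 0.22, 95% interval -0.17 to 0.84), or 0.62 without control replicate 1 (unadjusted p = 0.00335) and 0.15 without control replicate 2. *H2-Oa* had 156, 116 and 183 counts in Atrx-cKO and 127, 125 and 76 in control, or 2.60 ± 0.54 CPM and 1.90 ± 0.32 CPM (mean ± SD). It had the highest log2 fold change of the 10 genes, 0.45 (standard error 0.24, 95% interval -0.10 to 1.004, unadjusted p = 0.0947), and Atrx-cKO replicate 2 lay below control replicate 1. The antisense gene that shares its exons had 40 to 81 counts per library, and its part in the value of *H2-Oa* was not tested. The intervals of *H2-DMb2*, *H2-Oa* and *H2-Ob* were the widest above 0, with upper bounds of 1.08, 1.004 and 0.84, while that of *H2-DMa* ended at 0.12.

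**Figure D3:**
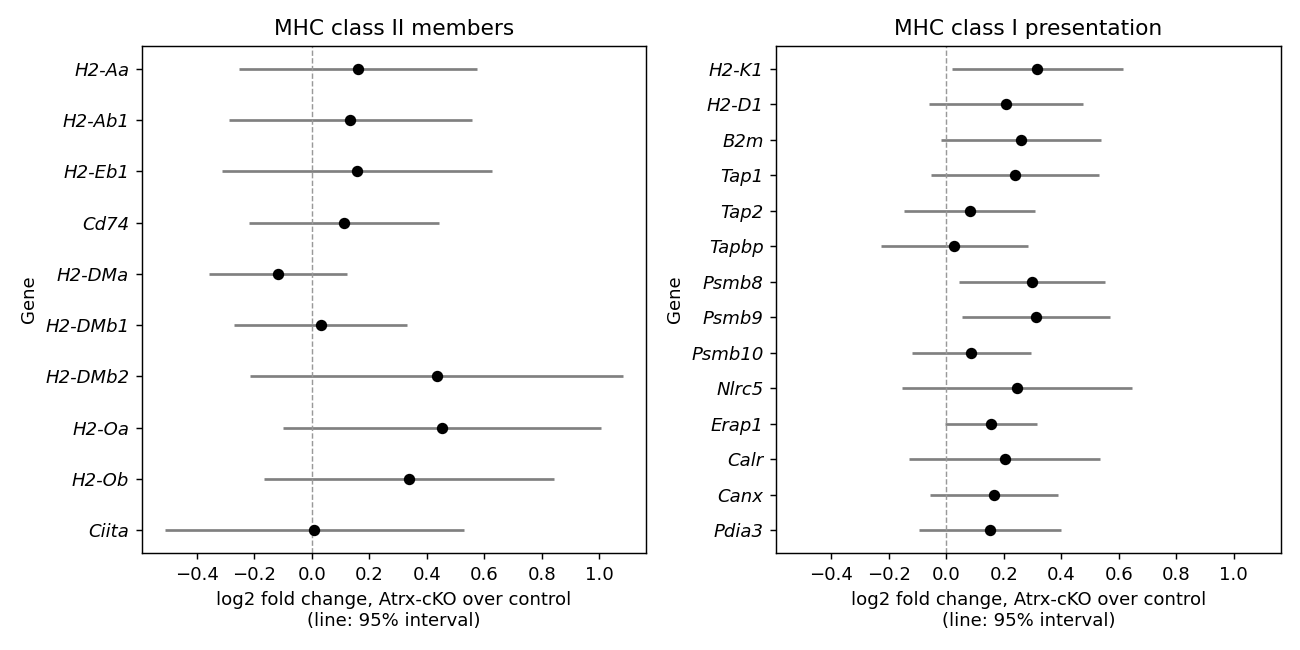
Log2 fold change of Atrx-cKO over control (point) with its 95% interval (line) from edgeR for the 10 class II genes (left) and 14 class I presentation genes (right), on a common axis. All 10 class II intervals include 0, and the 14 class I points all lie above 0, between 0.03 and 0.32.

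The class II genes followed more than one course over the libraries. On the log2 scale the span between the highest and the lowest library was 0.38 for *H2-DMa*, 0.43 for *H2-DMb1*, 0.55 for *Cd74* and 0.69 to 1.02 for the other 7 genes, against a median of 0.36 over the 12693 tested genes with a mean of at least 5 CPM. The highest library was control replicate 2 for the classical chains, *Cd74*, *Ciita*, *H2-DMa* and *H2-DMb1*, and the same library was the lowest for *H2-DMb2* and *H2-Ob*. Each gene's log2 level (with 0.5 CPM added) was centered on its mean over the 6 libraries and compared with the mean course of the classical chains and *Cd74*, leaving the gene itself out, and with the mean course of 11 B cell genes (*Cd79a*, *Pax5*, *Cd22* and others). The measure is the root mean square difference over 6 libraries, on the log2 scale, and the libraries share their depth and cell makeup with every gene, so the distances are a description. *H2-Aa*, *H2-Ab1*, *H2-Eb1* and *Cd74* lay 0.03 to 0.09 from their own mean course and 0.44 to 0.54 from the B cell course. *H2-DMb1* (0.12 and 0.44), *Ciita* (0.12 and 0.59) and *H2-DMa* (0.20 and 0.45) were on the same side. *H2-Ob* lay 0.45 from the classical course and 0.09 from the B cell course, and *H2-DMb2* lay 0.47 and 0.16 away. *H2-Oa* was at 0.31 from both. *H2-Oa* (0.22), *H2-DMa* (0.16) and, barely, *H2-DMb1* (0.11) lay nearer to the mean course of a monocyte and macrophage list than to either of these courses. For *H2-DMa* a plasma cell list was slightly nearer still (0.15).

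**Figure D4:**
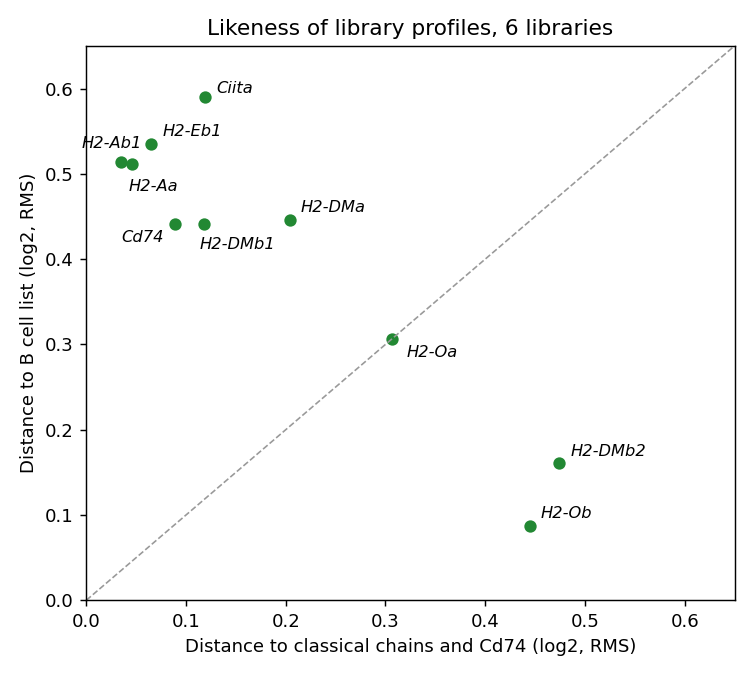
Root mean square distance of each class II gene's course over 6 libraries from the mean course of the classical chains and *Cd74* (x axis) and from that of 11 B cell genes (y axis), both on the log2 scale, with equal distance as a dashed line. The 7 genes above the line are nearer to the classical course, *H2-Ob* and *H2-DMb2* are nearer to the B cell course, and *H2-Oa* lies on the line.

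**Figure D5:**
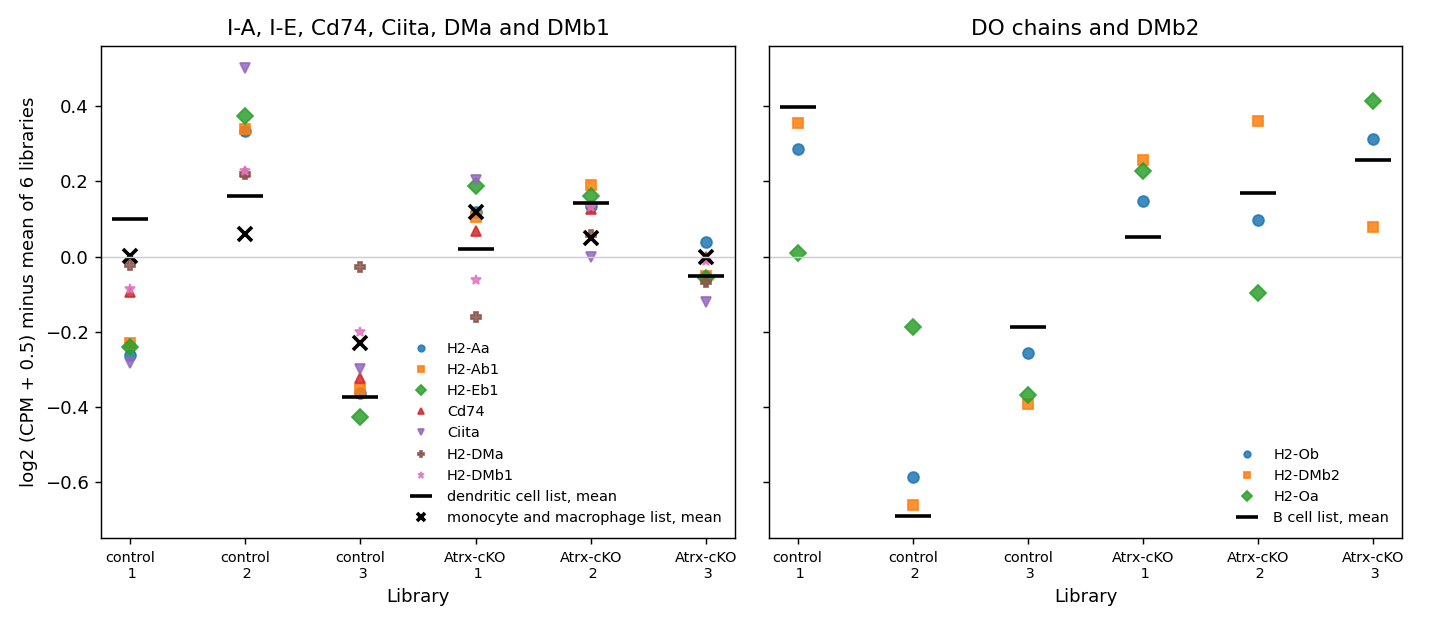
Centered log2 level of each class II gene in each library (colored symbols), with the mean of the dendritic cell, macrophage and B cell lists in black. Control replicate 2 is the highest library for the genes on the left (0.22 to 0.50) and the lowest for *H2-Ob* and *H2-DMb2* on the right (-0.59 and -0.66), where the B cell list is at -0.69.

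Control replicate 2 carried much of this contrast. With it left out, the distance to the classical course minus that to the B cell course was still below 0 for *H2-Aa* (-0.20), *H2-Ab1* (-0.21), *H2-Eb1* (-0.21), *Cd74* (-0.11), *H2-DMb1* (-0.05) and *Ciita* (-0.18), and above 0 for *H2-Ob* (0.12) and, barely, *H2-DMb2* (0.02), while *H2-DMa* crossed to 0.02. *H2-Oa* changed sides in 2 of the 6 fits that each left out 1 library. The ratio to the B cell receptor gene *Cd79a* gave a view of the same libraries that does not depend on scaling. *H2-Ob* per *Cd79a* count ran from 0.337 to 0.477, a range of 1.42-fold, and *H2-DMb2* spanned 1.73-fold and *H2-Oa* 1.98-fold. *H2-Ab1* per *Cd79a* ran from 3.85 in control replicate 1 to 12.9 in control replicate 2, a range of 3.34-fold, and *Ciita* spanned 3.90-fold. Without control replicate 2 the ranges were 1.42-fold for *H2-Ob*, 1.78-fold for *H2-Ab1* and 1.99-fold for *Ciita*, but 1.35-fold for *H2-DMa* and 1.498-fold for *H2-DMb1*, below the 1.73-fold of *H2-DMb2*. The course of *H2-Ob* was also 0.22 from that of the erythroid list, which was low in the same library, and that of *Cd74* was 0.09 from the dendritic cell list and 0.09 from the monocyte and macrophage list. The classical chains were farther from these lists, at 0.16 to 0.18 and 0.17 to 0.19, and *Ciita* was at 0.23 and 0.22.

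Among the same 12693 genes, the 8 genes outside the class II set whose course was most like the mean of the classical chains and *Cd74* were *Tlr13*, *Ly86*, *Gm47248*, *Kdm6bos*, *Krt80*, *Ctss*, *Ccl9* and *Kmo*, at distances of 0.05 to 0.09. *Tlr13* encodes an endosomal receptor for bacterial RNA and *Ly86* a partner of a Toll-like receptor relative on antigen presenting cells. *Ctss* encodes cathepsin S, which removes invariant chain from class II molecules, and *Ccl9* encodes a chemokine of myeloid cells. In this order of likeness *H2-DMb1* was 36th and *Ciita* 39th, *H2-DMa* was 1306th, and *H2-Ob* and *H2-DMb2* were 12001st and 12146th, near the far end. The genes most like the mean of *H2-Ob* and *H2-DMb2*, a search made after their courses had been seen, were *Grap2*, *Cd22*, *Serpinb2*, *Alox12*, *Tubb1*, *Tnfrsf13c*, *Parvb* and *Gp1ba*. *Cd22* and *Tnfrsf13c* encode B cell receptors, and *Alox12*, *Tubb1* and *Gp1ba* are known from platelets and megakaryocytes. Both *H2-Ob* and *H2-DMb2* had already been seen to lie near the mean of the B cell list, so its counts here are a description and no test. Of the 9 B cell genes at 5 CPM or more, 8 were among the 500 genes nearest to *H2-Ob* and *H2-DMb2*. Among the 500 nearest to the classical chains there were 0. For the 8 erythroid genes these counts were 4 and 0, and for the 14 class I presentation genes they were 0 and 8. For the 8 dendritic cell genes at this level they were 0 and 1, and for the 12 monocyte and macrophage genes 0 and 4. The nearest 500 are 3.94% of the genes ranked. All these ranks and counts used the 6 libraries together. They were not repeated without control replicate 2, which carried much of the contrast between the courses.

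Genes that act with class II molecules, or on the sister class I pathway, were followed as whole lists. Of 44 further pathway genes tested, 0 were called, and 3, all class I genes, had an unadjusted p under 0.05. The 10 genes of invariant chain and peptide processing had a median log2 fold change of -0.02. They ran from -0.24 for *Sppl2a*, which encodes the protease that clears the invariant chain stub, to 0.23 for *Ctss*. *Ctss* had 136, 131 and 109 CPM in Atrx-cKO and 98.8, 143 and 79.9 CPM in control, highest in control replicate 2 and lowest in control replicate 3 as the classical chains were. Among the other endosomal protease genes the log2 fold change was 0.18 for *Lgmn* (219.9, 178 and 190.3 CPM in Atrx-cKO and 160.2, 177 and 181 CPM in control), 0.08 for *Ctsl*, -0.02 for *Ctsb* and -0.03 for *Ctsd*.

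The 7 promoter factor genes encode proteins known to bind X and Y boxes, and their binding to the stretches printed above was not tested. These genes had a median log2 fold change of 0.07, from -0.06 for *Rfxap* to 0.17 for *Rfx5*. *Rfx5*, the X box factor, had 28.2, 28.4 and 30.3 CPM in Atrx-cKO and 24.2, 27.2 and 26.01 CPM in control (unadjusted p = 0.0878, edgeR quasi-likelihood test). Its groups did not overlap, and neither did those of *Nfyc*, where 4.30% of all tested genes had all 3 Atrx-cKO libraries above all controls. Single factors spanned 0.14 (*Nfyc*) to 0.32 (*Rfx5*) between their lowest and highest library on the log2 scale.

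On the interferon gamma route, which induces *Ciita*, 6 of 7 genes were tested and *Ifng* itself was below the filter. Their median log2 fold change was 0.07, with the lowest at 0.01 for *Ifngr2*, which encodes a chain of the interferon gamma receptor. The 6 co-stimulation genes had a median of 0.26, from -0.12 for *Cd40* to 0.82 for *Pdcd1lg2*, which had under 0.31 CPM in every library.

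Class I presentation loads peptides from the cytosol for CD8 T cells. All 14 of its listed genes had a log2 fold change above 0, with a median of 0.21 against 0.00 for all genes, and ran from 0.03 for *Tapbp* to 0.32 for *H2-K1*. *H2-K1*, a classical class I heavy chain, had 746, 938 and 782 CPM in Atrx-cKO and 649, 736 and 595 CPM in control, a log2 fold change of 0.32 (unadjusted p = 0.0400). The immunoproteasome genes *Psmb8* (0.30, unadjusted p = 0.0271) and *Psmb9* (0.31, unadjusted p = 0.0235) were the others under 0.05 in the edgeR quasi-likelihood test, as were 1.59% of all tested genes in this direction. *Psmb8* had 53.8, 52.3 and 46.7 CPM in Atrx-cKO and 43.7, 45.0 and 35.7 CPM in control, and *Psmb9* had 28.6, 31.9 and 27.3 CPM and 25.9, 24.0 and 20.9 CPM. In these genes and in *Erap1*, which trims class I peptides, all Atrx-cKO libraries exceeded all controls, 4 of the 14, as in 4.30% of all tested genes. None passed adjustment (Benjamini-Hochberg adjusted p = 0.992 for each in edgeR). *B2m*, the light chain of class I and the reference gene of the RT-qPCR in the study, had 751, 845 and 771 CPM in Atrx-cKO and 626, 758 and 593 CPM in control, a log2 fold change of 0.26 (standard error 0.12, 95% interval -0.02 to 0.54, unadjusted p = 0.0637). Without control replicate 3, 12 of the 14 were above 0, the median was 0.13 and none had an unadjusted p under 0.05. Without Atrx-cKO replicate 2 the median was 0.16, again with none under 0.05.

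Markers of the cells that carry class II molecules also varied between libraries, and the mean course of the list spanned 0.53 on the log2 scale for dendritic cells, 0.35 for monocytes and macrophages and 1.09 for B cells. The 11 dendritic cell genes summed to 123 to 154 CPM in Atrx-cKO and 93.8 to 144 CPM in control, with a median log2 fold change of 0.04, and all 11 passed the filter. *Itgax*, the dendritic cell integrin CD11c, had 15.8, 15.5 and 12.2 CPM in Atrx-cKO and 15.6, 19.1 and 10.5 CPM in control, highest in control replicate 2 and lowest in control replicate 3. *Bst2*, an interferon-induced gene on plasmacytoid cells, was the highest of the list at 0.47 (unadjusted p = 0.0367). *Batf3* was the lowest at -0.43, and 6 of the 11 genes were above 0 and 5 below. The 12 monocyte and macrophage genes summed to 1320 to 1396 CPM in Atrx-cKO and 1178 to 1403 CPM in control. Their median log2 fold change was 0.11, with 10 of the 12 genes above 0 and 2 below, and *Fcgr1* the highest at 0.51. *Csf1r*, the receptor for the growth factor of macrophages and osteoclasts, was the lowest at -0.23 (unadjusted p = 0.0256, edgeR quasi-likelihood test). The complement gene *C1qa* was at 0.26 (unadjusted p = 0.0341, same test), the direction of most of the list.

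The 11 B cell genes summed to 448 to 552 CPM in Atrx-cKO and 300.1 to 663 CPM in control, with a median log2 fold change of 0.25, and none passed the test. The median was -0.0062 without control replicate 2, with 5 of 11 genes above 0, and 0.57 without control replicate 1, with 11 of 11 above 0 and 6 at an unadjusted p under 0.05. *Cd79a* had 36.4, 40.1 and 46.7 CPM in Atrx-cKO and 51.4, 22.9 and 38.6 CPM in control. The 8 osteoblast and osteocyte genes were at a median of -0.23 and the 8 osteoclast genes at -0.37, with *Ibsp*, a bone matrix gene, at -0.51 (unadjusted p = 0.0221). Over all 6 libraries no gene of these cell lists passed the edgeR quasi-likelihood test (lowest adjusted p = 0.992). In DESeq2 the lowest adjusted p was 0.353, in the osteoblast and osteocyte list. Without control replicate 1 the lowest adjusted p in edgeR was 0.0967 in both that list and the erythroid list, and 0.133 in the B cell list, and 7 of the 8 osteoblast and osteocyte genes had an unadjusted p under 0.05. In that fit 882 genes were higher and 1194 lower at an unadjusted p under 0.05 among all 21349 tested. With all libraries these counts were 328 and 423 of 20636. What part the makeup of each tibia has in the class II levels was not tested.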

How the data were processed

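Polyadenylated RNA from 6 mouse tibias, 3 Atrx-cKO and 3 control, was sequenced, and GENEWIZ prepared and sequenced the libraries for the study. The authors deposited 1 table of unnormalized counts for each library, with 55401 Ensembl identifiers and 5 summary entries that were left out of library sizes and tests (reads on genes were 42.8% to 43.8% of each table). The submitters' processing notes name GRCm38 and DESeq2. The aligner, the counting program and its strand setting are not given in the sources used here, so reads of overlapping genes cannot be told apart. GENCODE M21 named 55141 identifiers and left 260 without a name. Age, sex and doxycycline treatment are from the study's methods.

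Counts were fitted over all 20636 genes kept by filterByExpr with edgeR 4.0.16 (TMM, glmQLFit and glmQLFTest, genotype only) in R 4.3.3, with DESeq2 1.42.0 as the alternative test. Other alternatives were RLE, upper quartile and no scaling factor, other filters, the replicate block and leaving out each library. On simulated counts with 200 changed genes edgeR recovered 191 of them with 2 false calls over 20363 genes. DESeq2 recovered 191 with 1 false call over 20636 genes. Recovery at log2 fold changes as small as those of the class II genes was not tested. The smallest p that exact permutation allows for groups of 3 is 0.1, so no permutation test was used. The member genes and all lists were chosen with earlier results of these data known. Besides the members, the genes named are those of the lists with an unadjusted p under 0.05 or the extreme fold changes, a few markers named in advance, and the 8 genes nearest in course to the classical chains. *Ctsb*, *Ctsl*, *Ctsd*, *Lgmn*, *Nfyc*, *Erap1*, the ratios of members to *Cd79a* and the search around *H2-Ob* and *H2-DMb2* were chosen after the values were seen.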

Additional observations from a re-analysis of the deposited data

How the results depend on the processing

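No class II gene and no further pathway gene was called under any of the 14 other settings run (RLE, upper quartile and no scaling factor, no filter, at least 10 counts in every library, DESeq2, the replicate block, an adjusted p alone, and each library left out in the fits across all genes). The sign of the members' log2 fold changes held under the scalings, filters, DESeq2 and the block, and changed with libraries left out for 5 genes. The ranges over the 6 left-out libraries were -0.0095 to 0.37 for *H2-Ab1*, -0.011 to 0.43 for *H2-Eb1*, -0.021 to 0.27 for *Cd74*, -0.071 to 0.17 for *H2-DMb1* and -0.14 to 0.33 for *Ciita*, each lowest without control replicate 3 and highest without control replicate 2. The cause was not tested. The distance to the classical course minus that to the B cell course, an alternative added after the data were seen, ran from -0.33 to 0.018 for *H2-DMa* and from -0.066 to 0.042 for *H2-Oa*. Same-numbered libraries had correlations of -0.03, 0.06 and -0.07 in their deviations from the group means. With 3 libraries per group these values cannot exclude pairing, and the labels do not state any. With the replicate block 0 members and 0 pathway genes were called, 6 of the latter had an unadjusted p under 0.05 against 3 without it, and 0 of all genes were called against 3. Without a scaling factor the median of all genes moved from 0.00 to 0.08, 539 genes were higher and 285 lower at an unadjusted p under 0.05 against 328 and 423, and 9 of the 10 class II processing genes were above 0 against 4. DESeq2 called 10 genes higher and 13 lower.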
